A study of Mus musculus with 4 samples.

Results

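S100 proteins are small calcium-binding proteins, and 9 of their genes were read in the glomeruli of mice with and without guanylyl cyclase A (GC-A, encoded by Npr1), which binds the natriuretic peptides made by the heart. The genes were S100a1, S100a4, S100a6, S100a8, S100a9, S100a10, S100a11, S100a13 and S100g, listed by name and chosen with their values on these arrays in view. Of the 9, 8 had a probe set annotated to them alone, among 18193 genes so measured. For S100a11, the probe set that lists it also lists the predicted gene Gm12854 and the pseudogene S100a11-ps, so no value was given to S100a11. Male mice, each with a kidney removed, gave glomerular RNA for 1 Affymetrix array in each of 4 groups. The groups were mice with a systemic GC-A knockout (KO) on control treatment, wild-type (WT) mice on control treatment, KO mice on aldosterone and salt (ALDO), and WT mice on ALDO. Control treatment was continuous subcutaneous 2% ethanol with a normal diet, and ALDO was continuous subcutaneous aldosterone with a diet of 6% salt for 3 weeks. The age and strain of the mice, the number of mice behind each array and the design of the knockout allele are not known here.

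An S100 protein carries a pair of calcium-binding loops called EF-hands, usually forms dimers, and on binding calcium exposes a surface that grips a target protein. S100a8 and S100a9 together form calprotectin, which neutrophils and monocytes hold in quantity and release as an alarm signal for the receptors Tlr4 and Ager. Other members act mainly inside cells, where S100a10 pairs with annexin A2 at the membrane, S100a4 binds non-muscle myosin, and S100g, also called calbindin-D9k, carries calcium through the distal tubule under the control of vitamin D.

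Promoters of the members the results turn on are shown first, as RefSeq gives them on the mouse build GRCm38.p6, from 250 bases before to 50 bases after each annotated start. S100a8 and S100a9 are shown because both were dim on the WT ALDO array only, and S100a4 and S100a6 because both were over 2-fold brighter in KO ALDO than in WT ALDO. The windows are chr3:90668821-90669120 (plus strand) for S100a8, chr3:90695672-90695971 (minus strand) for S100a9, chr3:90603520-90603819 (plus strand) for S100a4 and chr3:90612644-90612943 (plus strand) for S100a6. Capitals mark matches to 6 short motifs named after the sequences.
S100a8: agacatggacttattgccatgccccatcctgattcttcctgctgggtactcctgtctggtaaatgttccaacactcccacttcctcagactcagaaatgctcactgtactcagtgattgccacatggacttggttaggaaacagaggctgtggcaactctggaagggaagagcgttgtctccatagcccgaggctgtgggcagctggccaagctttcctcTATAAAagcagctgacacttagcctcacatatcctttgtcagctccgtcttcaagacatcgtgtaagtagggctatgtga
S100a9: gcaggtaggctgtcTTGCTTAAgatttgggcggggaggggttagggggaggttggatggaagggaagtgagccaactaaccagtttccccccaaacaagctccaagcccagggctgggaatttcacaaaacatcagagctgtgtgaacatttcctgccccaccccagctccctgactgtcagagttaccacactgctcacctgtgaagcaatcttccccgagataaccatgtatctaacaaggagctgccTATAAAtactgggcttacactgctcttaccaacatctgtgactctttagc
S100a4: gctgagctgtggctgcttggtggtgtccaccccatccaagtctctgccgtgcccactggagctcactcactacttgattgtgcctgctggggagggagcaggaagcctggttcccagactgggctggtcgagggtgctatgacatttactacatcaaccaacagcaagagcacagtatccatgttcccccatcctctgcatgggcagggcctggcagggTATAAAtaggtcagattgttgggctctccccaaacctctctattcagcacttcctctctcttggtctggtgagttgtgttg
S100a6: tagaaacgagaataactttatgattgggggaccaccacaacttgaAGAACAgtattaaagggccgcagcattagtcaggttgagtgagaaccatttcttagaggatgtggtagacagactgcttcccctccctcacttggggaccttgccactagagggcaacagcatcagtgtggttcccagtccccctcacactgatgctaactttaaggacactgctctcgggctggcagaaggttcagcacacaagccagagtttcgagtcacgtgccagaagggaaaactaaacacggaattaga
The promoters were searched on both strands for TTGCNNAA, the letters read by C/EBP factors. The STAT factors were represented by TTCNNNGAA, also searched on both strands. For AP-1 the letters were TGANTCA on both strands, and for NF-kB its 10-letter consensus was used. A half-site of steroid hormone receptors was searched on both strands as TGTTCT. The TATA box, searched on the strand of the gene alone, was represented by TATAAA. These last letters were found in S100a8 from 30 to 25 bases before the start and in S100a4 from 31 to 26 bases before it. In S100a9 they lay at the annotated start itself, and S100a9 also held 1 match to the C/EBP letters. S100a6 held no TATA box letters and 1 steroid receptor half-site. Among 32851 promoter windows of the same length, 8.32% held the TATA box letters, 10.8% those of C/EBP, 8.30% those of STAT, 7.81% those of AP-1, 1.63% those of NF-kB and 19.0% the half-site. No marked match overlapped another, and a match is a run of letters and not a tested binding site.

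S100a1 and S100a13 lie head to head, and the second set is shown because the pair shares promoter sequence. Their annotated starts were 105 bases apart on opposite strands, and their windows had 204 bases in common, chr3:90514281-90514484, printed on the plus strand, the strand of S100a13. Lower case throughout marks that none of the 6 motifs was found in it.
S100a1 and S100a13: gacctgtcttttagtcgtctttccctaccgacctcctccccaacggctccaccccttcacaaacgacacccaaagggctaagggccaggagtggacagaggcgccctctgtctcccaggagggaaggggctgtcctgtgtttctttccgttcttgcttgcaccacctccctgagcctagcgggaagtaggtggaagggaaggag
Promoters were found for 8 of the 9 genes, all but S100a10. Besides those shown, S100g held the TATA box letters and 1 match to the C/EBP letters, and S100a11 held 2 matches to the AP-1 letters.

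Each array had been scaled to the same trimmed mean intensity, 500.003, and the array medians were 97.7 in KO control, 89.5 in WT control, 103 in KO ALDO and 91.9 in WT ALDO. The probe set of Npr1 was dim, with 108 in KO control, 92.6 in WT control, 23.4 in KO ALDO and 60.5 in WT ALDO, and where its probes lie against the knockout deletion is not known here, so the genotype labels were not checked by it. Markers of podocytes were bright on each array, with sums over 5 genes of 17871 in KO control, 18441 in WT control, 20639 in KO ALDO and 18984 in WT ALDO. Markers of proximal tubules were bright as well, with sums over 6 genes of 80976 in KO control, 94541 in WT control, 73850 in KO ALDO and 88269 in WT ALDO, so the preparations held tubular RNA. Between genotypes the median log2 difference was -0.10 under control treatment and 0.14 under ALDO for podocyte markers, -0.27 and -0.32 for those of proximal tubules, 0.43 and 0.52 for 6 endothelial and 0.35 and 0.45 for 5 mesangial markers. Lymphocyte and erythroid markers had no gene in the brighter 50%. What part these cells had in the members' values was not tested. For beta-actin the signal at the 3' end over that at the 5' end, a measure of RNA length, was 1.67 and 1.61 in KO control and KO ALDO, against 1.86 and 1.87 in WT control and WT ALDO. It was thus lower on both KO arrays, where the members were brighter, and its part in the differences below was not tested. Values are given as intensities, and differences as log2(intensity + 16), which understates the change of dim genes. With 1 array a group there was no replicate, no error and no test, and the number of arrays limits the precision. In whole-tissue RNA, fewer cells of a type and less RNA per cell cannot be told apart.

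**Figure D1:**
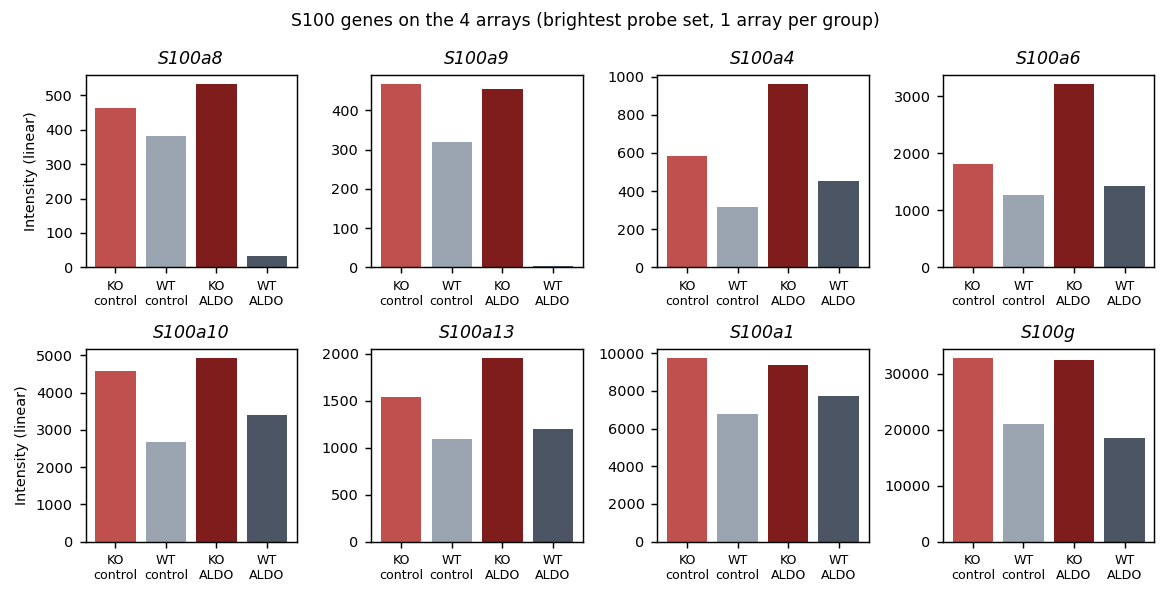
Intensity (linear scale, from 0) of the brightest probe set of each of 8 S100 genes, with 1 bar for each array in the order KO control, WT control, KO ALDO and WT ALDO. The KO bar is the taller of each pair in all 8 panels, and S100a8 (34.5) and S100a9 (4.50) are close to 0 in WT ALDO.

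KO arrays were set against WT arrays to read the members by genotype, first under control treatment. All 8 members with a value were higher in KO control than in WT control, by log2 differences of 0.26 to 0.86, with a median of 0.52. None reached 2-fold, where 0.967% of the 9097 genes in the brighter 50% were 2-fold or more higher. Of those 9097 genes 49.7% were above 0, and their median was -0.00. The members were chosen on these arrays, so nothing is read from how their counts compare with those of other genes. Under ALDO all 8 were higher in KO again, by 0.28 to 4.52 with a median of 0.93, where 51.3% of the 9097 genes were above 0 and their median was 0.01. The 7 members in the brighter 50%, without S100a9, were above 0 under both treatments, as were 34.8% of the 9097 genes. At 2-fold or more stood 3 of these 7 (S100a4, S100a6 and S100a8), against 1.26% of the 9097 genes, and with S100a9 4 of 8, against 4.72% of all 18193 genes.

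**Figure D2:**
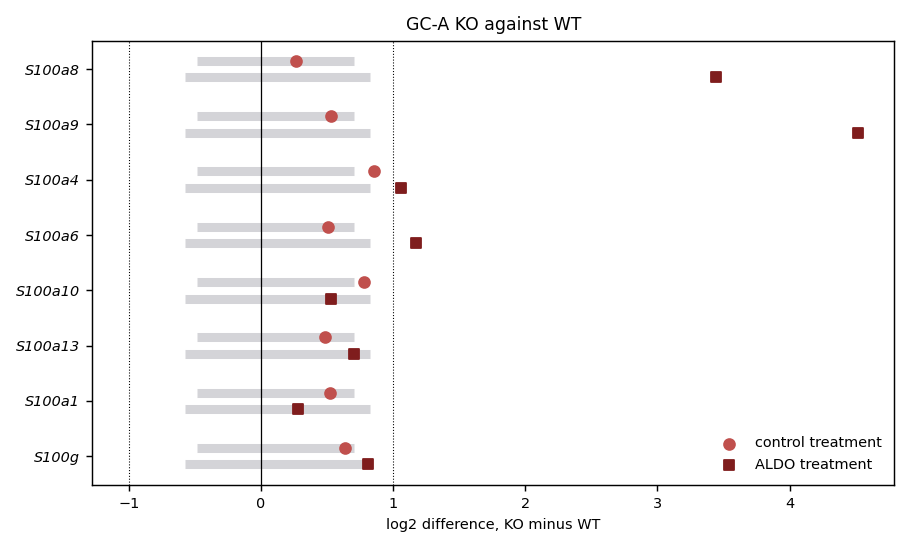
Log2 difference of KO minus WT for each of 8 S100 genes, under control treatment (circles) and ALDO (squares). Grey bars span the central 95% of the 9097 brighter genes, dotted lines mark 2-fold, and all 16 points lie above 0.

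S100a8 and S100a9 encode the subunits of calprotectin. S100a8 had an intensity of 462 in KO control, 383 in WT control, 533 in KO ALDO and 34.5 in WT ALDO. S100a9 had 468 in KO control, 320.2 in WT control, 453 in KO ALDO and 4.50 in WT ALDO. For both genes WT ALDO stood far below the other 3 arrays. Both WT ALDO values lay below the median of that array, at percentile 30.1 of its probe sets for S100a8 and 6.94 for S100a9.

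The log2 difference of KO ALDO minus WT ALDO was 3.44 for S100a8 and 4.52 for S100a9. That of WT ALDO minus WT control was -2.98 for S100a8 and -4.04 for S100a9. Both comparisons use the WT ALDO array and are a single observation. Between the other arrays the differences were smaller. KO control minus WT control gave 0.26 for S100a8 and 0.53 for S100a9, and KO ALDO minus KO control gave 0.20 and -0.04. The size of the differences against WT ALDO depended on the pseudocount, since its intensities are dim. For KO ALDO minus WT ALDO it was 3.91 for S100a8 and 6.37 for S100a9 with a pseudocount of 1, and 2.60 and 2.92 with a pseudocount of 64. For WT ALDO minus WT control it was -3.43 for S100a8 and -5.87 for S100a9 with a pseudocount of 1, and -2.18 and -2.49 with a pseudocount of 64.

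S100a8 lay just inside the brighter 50% with a mean log2 intensity of 8.07, against the limit of 8.04, and S100a9 just outside it with 7.64. Each gene had 1 probe set. That of S100a8 carries the suffix that Affymetrix gives to probe sets whose probes can match more than 1 transcript. The brightest probe set of S100a1 carries the same suffix.

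Cells that carry calprotectin were read through other markers. Of 15 neutrophil markers 13 had a probe set, and all 13 were in the dimmer 50%, with summed intensities of 552 in KO control, 561 in WT control, 750.3 in KO ALDO and 458 in WT ALDO. None was at 0, and the brightest of them in WT ALDO had 96.8. The single markers went different ways. Csf3r, the receptor of granulocyte colony-stimulating factor, had 65.7 in KO control, 93.4 in WT control, 98.6 in KO ALDO and 31.5 in WT ALDO. Mmp9, a protease of neutrophil granules, had 99.9 in KO control, 66.3 in WT control, 17.8 in KO ALDO and 77.4 in WT ALDO. Csf3r was thus dimmest in WT ALDO, as S100a8 and S100a9 were, whereas Mmp9 was dimmest in KO ALDO. In KO ALDO against WT ALDO 8 of the 13 were higher, 7 by at least 2-fold with Csf3r (1.27) highest, and 5 were lower, Mmp9 (-1.47) and the peroxidase Mpo (-1.03) by over 2-fold. In WT ALDO against WT control 6 of the 13 were above 0, with the protease Ctsg (0.90) highest, and 7 were below, Csf3r (-1.20) and the elastase Elane (-1.12) by over 2-fold. Nothing is read from these counts of dim probe sets.

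Monocyte and macrophage markers were brighter, with summed intensities over 17 genes of 14225 in KO control, 7132 in WT control, 15491 in KO ALDO and 6817 in WT ALDO. They moved with genotype, with all 9 members in the brighter 50% above 0 in both comparisons, 6 and 7 of them by 2-fold or more. Their median was 1.40 in KO control against WT control and 1.28 in KO ALDO against WT ALDO. C1qb (2.31) under control treatment and C1qa (1.86) under ALDO were highest, and Csf1r (0.31 and 0.65) was lowest in both. Of the 9097 genes, 49.7% and 51.3% were above 0 in these comparisons, and 0.967% and 1.26% were 2-fold or more higher. Between WT ALDO and WT control the median of these 9 was 0.04, from C1qb at 0.94 to the protease cathepsin S, Ctss, at -0.69, while S100a8 and S100a9 were far lower. What part either cell type had in the values of S100a8 and S100a9 was not tested.

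**Figure D3:**
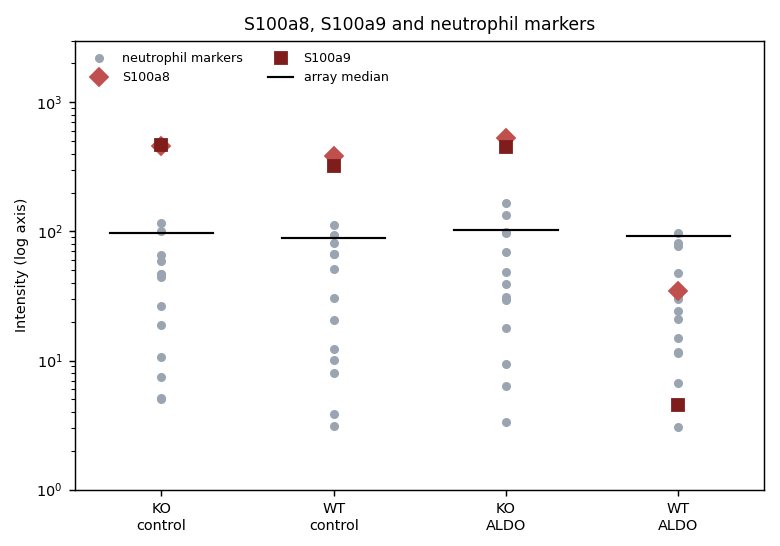
Intensity (log axis) of S100a8 (diamonds), S100a9 (squares) and 13 neutrophil markers (grey points) on each array, with the array's median as a line. S100a8 and S100a9 lie above the line on 3 arrays and among the dim markers in WT ALDO.

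Receptors of calprotectin were read as well. Tlr4, a receptor of bacterial products and of calprotectin, had 205 in KO control, 142 in WT control, 258 in KO ALDO and 162 in WT ALDO. Ager, the receptor for advanced glycation end products, had 168 in KO control, 131 in WT control, 199.6 in KO ALDO and 149.7 in WT ALDO. Both were brighter in KO than in WT under either treatment, and both were in the dimmer 50%. Of the receptor list 4 of 7 genes were in the brighter 50%, and their median was -0.10 under control treatment and 0.16 under ALDO. Cd14, the co-receptor of Tlr4, was highest (0.53 and 0.82), and Cd36, a scavenger receptor, lowest (-0.38 and -0.68).

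Among inducers and signal proteins of the acute phase response, which is known to raise calprotectin, 9 of 10 brighter genes were above 0 in KO control (median 0.48) and 8 of 10 in KO ALDO (median 0.38). Of the 9097 genes, 49.7% and 51.3% were above 0 in KO against WT under control treatment and ALDO. Among the 10 genes Socs3, an inhibitor of cytokine signalling, was highest, at 1.31 and 2.66. Stat3, the transcription factor it limits, had 2198 in KO control, 1355 in WT control, 2434 in KO ALDO and 1445 in WT ALDO, so that both KO arrays were above both WT arrays (0.69 and 0.75). Lowest were Il17ra (-0.50) under control treatment and Il6ra (-0.21) under ALDO. In WT ALDO against WT control 8 of these 10 genes were above 0, as were 51.9% of the 9097 genes, and their median was 0.31. Of all 14 measured genes of the list 3 were below 0, Il17ra (-0.24), Socs3 (-0.24) and the dim Il1b (-0.64). What part the acute phase response had in the values of S100a8 and S100a9 was not tested.

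S100a4, S100a6 and S100a10 are linked to the cytoskeleton and the cell membrane. S100a4, a binding partner of non-muscle myosin found in fibroblasts and leukocytes, had an intensity of 584 in KO control, 315 in WT control, 963 in KO ALDO and 454 in WT ALDO. Both KO arrays were above both WT arrays, and ALDO was above control in either genotype. Its log2 difference between genotypes was 0.86 under control treatment and 1.06 under ALDO, and centring each array on its median took the second to 0.92 and a pseudocount of 64 took it to 0.99, both below 2-fold. S100a6, or calcyclin, a protein of proliferating and mesenchymal cells, had 1817 in KO control, 1271 in WT control, 3218 in KO ALDO and 1418 in WT ALDO. Both KO arrays were again above both WT arrays, by 0.51 under control treatment and 1.17 under ALDO. KO ALDO was the highest array, with a difference of 0.82 from KO control.

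S100a10, the partner of annexin A2, had 4596 in KO control, 2665 in WT control, 4932 in KO ALDO and 3404 in WT ALDO in its brightest probe set. The KO arrays were again above the WT arrays, by 0.78 under control treatment and 0.53 under ALDO. Its next probe set gave 0.65 and 0.49, with 3538 in KO control, 2243 in WT control, 4452 in KO ALDO and 3168 in WT ALDO. A further one was dim, with 139 in KO control, 167 in WT control, 181 in KO ALDO and 130.02 in WT ALDO, and was the single probe set of the 8 genes that was lower in KO (-0.25, under control treatment).

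The partners of these proteins were read beside them. Anxa2, the annexin that binds S100a10, had 3735 in KO control, 3134 in WT control, 5725 in KO ALDO and 3271 in WT ALDO, a difference of 0.25 under control treatment and 0.80 under ALDO. Anxa1, which binds S100a11, had 2141 in KO control, 1878 in WT control, 4331 in KO ALDO and 2203 in WT ALDO, a difference of 0.19 and 0.97. Both were brightest in KO ALDO, as S100a4, S100a6, S100a8, S100a10 and S100a13 were. Cacybp, a calcyclin-binding protein, had 1641 in KO control, 1985 in WT control, 1754 in KO ALDO and 1454 in WT ALDO, with differences of -0.27 and 0.27. Myh9, the myosin heavy chain that S100a4 binds, differed by 0.24 and 0.69, and the plasminogen activator Plat, which the complex of S100a10 and annexin A2 captures, by 0.44 and 0.60. Of 12 brighter genes in the list of binding partners, 9 were above 0 under control treatment (median 0.25) and 11 under ALDO (median 0.41), none by 2-fold. Fgf1 (-0.13) was the lowest of them under ALDO. Of the 9097 genes, 49.7% and 51.3% were above 0 under control treatment and ALDO.

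Fibroblast markers moved in the same comparisons as S100a4 and S100a6. Their summed intensity over 10 genes was 11587 in KO control, 8457 in WT control, 21230.2 in KO ALDO and 9840 in WT ALDO, with the lowest single value at 22.1. Of 6 in the brighter 50%, 5 were above 0 under control treatment and 6 under ALDO, with medians of 0.42 and 1.08. The highest were decorin, Dcn (1.52), under control treatment and fibronectin, Fn1 (1.51), under ALDO, and Pdgfra was lowest in both (-0.51 and 0.09). Of the 9097 genes, 49.7% and 51.3% were above 0 under control treatment and ALDO. Macrophage markers, given above, moved with genotype as well. What part either list had in the values of S100a4, S100a6 and S100a10 was not tested.

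S100a13 and S100a1, the pair with shared promoter sequence, act in secretion and in calcium handling. S100a13, which helps release the growth factor Fgf1 and interleukin 1 alpha, had 1534 in KO control, 1093 in WT control, 1954 in KO ALDO and 1195 in WT ALDO. S100a1, a regulator of calcium release in muscle, had 9739 in KO control, 6794 in WT control, 9358 in KO ALDO and 7720.5 in WT ALDO. Both genes were brighter on the KO arrays, S100a13 by 0.48 under control treatment and 0.70 under ALDO, and S100a1 by 0.52 and 0.28. A dimmer probe set of S100a1 had 2545 in KO control, 2271 in WT control, 2894 in KO ALDO and 2183 in WT ALDO, so that its differences were 0.16 and 0.40. Of the muscle targets of S100a1, the calcium pump Atp2a2 differed by -0.02 and 0.15 and the release channel Ryr2 was dim on all 4 arrays, with 48.1 or less.

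S100g was bright on every array, with 32784 in KO control, 21057 in WT control, 32367 in KO ALDO and 18460.2 in WT ALDO. The KO arrays were alike and above both WT arrays, by 0.64 under control treatment and 0.81 under ALDO. It is the single member that lies on chromosome X. Calb1, the larger vitamin D-dependent calcium carrier of the distal tubule, had 21254 in KO control, 14473 in WT control, 23829 in KO ALDO and 18159 in WT ALDO, a difference of 0.55 and 0.39. The sodium-calcium exchanger Slc8a1 was highest of the renal calcium transport list under control treatment (1.05), and Cyp27b1, the enzyme that activates vitamin D, was highest under ALDO (1.05), while the vitamin D receptor Vdr was lowest in both (-0.42 and -0.28). Of 9 brighter genes of that list 6 and 7 were above 0, with medians of 0.19 and 0.27, where 49.7% and 51.3% of the 9097 genes were. Distal nephron and collecting duct markers had summed intensities over 8 genes of 80909 in KO control, 75601 in WT control, 86043 in KO ALDO and 78956 in WT ALDO. They differed between genotypes by medians of 0.23 and 0.37, with Scnn1g highest (1.21 and 1.06) and Slc12a1 lowest (-0.60 and -0.74). The part of distal tubule RNA in the values of S100g was not tested.

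The probe set that lists S100a11 with Gm12854 and S100a11-ps had 7716 in KO control, 6024 in WT control, 6322 in KO ALDO and 3681 in WT ALDO. Its differences between genotypes were 0.36 under control treatment and 0.78 under ALDO, and WT ALDO was its lowest array. Which of the 3 genes these values belong to cannot be read from the array.

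Of the 9 genes, 8 lie on chromosome 3, the chromosome that also carries Npr1, the gene knocked out. In the RefSeq order of protein-coding genes 3 genes, Ilf2, Snapin and Chtop, stand between Npr1 and S100a1, and 14 between Npr1 and S100a9, while S100a11 and S100a10 are farther off with 71 and 72 genes between. Those 3 genes had small differences between KO and WT arrays. Ilf2 differed by -0.04 under control treatment and -0.05 under ALDO, Snapin by 0.03 and 0.04, and Chtop by -0.06 and 0.03. Over 9 brighter neighbours that are not S100 genes, from 12 genes before Npr1 up to Chtop, differences ranged over -0.08 to 0.27 under control treatment and -0.19 to 0.37 under ALDO, with medians of 0.02 and 0.04. The 6 members of the cluster next to them, from S100a1 to S100a9, ranged over 0.26 to 0.86 and 0.28 to 4.52. The 4.52 is that of S100a9, which was not among the brighter genes, and the members were chosen on these arrays. Dimmer neighbours before Npr1 spread more widely, from -0.90 (Slc27a3) to 0.80 (Creb3l4) under control treatment and -0.86 (Creb3l4) to 0.47 (Rps27) under ALDO. Between S100a1 and S100a9, the measured genes not chosen as members went both ways, S100a14 and S100a16 higher in KO, S100a3 and S100a5 lower. DNA that the knockout mice may carry from the strain in which Npr1 was targeted cannot be told apart from the genotype here.

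**Figure D4:**
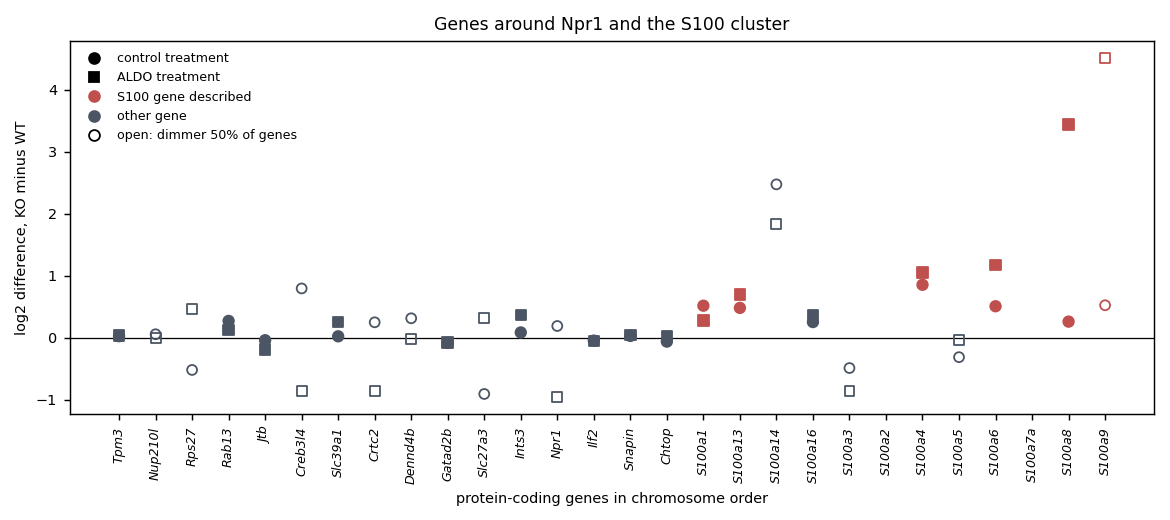
Log2 difference of KO minus WT under control treatment (circles) and ALDO (squares) for protein-coding genes in their order on chromosome 3, from 12 genes before Npr1 to S100a9. Red points are the S100 genes described, grey points the other genes, and open points genes in the dimmer 50%. Genes without a point have no probe set of their own, and the filled grey points left of S100a1 lie between -0.19 and 0.37.

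Of the other S100 genes of that cluster, S100a16 was the single one in the brighter 50%, with 3395 in KO control, 2842 in WT control, 3634 in KO ALDO and 2825 in WT ALDO. Its difference was 0.25 under control treatment and 0.36 under ALDO, smaller than those of most members. The other probe set of S100a16 gave 0.40 and 0.60, and the second of these is above S100a1 (0.28) and S100a10 (0.53). S100a14, an epithelial member, had 107 in KO control, 6.09 in WT control, 55.4 in KO ALDO and 4.03 in WT ALDO. It lay at percentile 51.7 of the array in KO control and 37.4 in KO ALDO, and lower than either on both WT arrays. S100a3 and S100a5 were dim on all 4 arrays, with 63.3 or less, and so was S100b, which lies outside the cluster, with 44.7 or less in its brighter probe set. S100a7l2 had 12.1 or less. Unlike the members, S100a3, S100a5 and S100a7l2 were lower in KO under both treatments. Under control treatment and ALDO their differences were -0.49 and -0.85 (S100a3), -0.31 and -0.03 (S100a5), and -0.52 and -0.06 (S100a7l2), all from dim probe sets.

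ALDO was set against control treatment within each genotype. In KO, 5 of 8 members were above 0, with differences of -0.06 to 0.82 and a median of 0.15. S100a6 (0.82), S100a4 (0.71) and S100a13 (0.35) were highest, and S100a1 (-0.06), S100a9 (-0.04) and S100g (-0.02) were below 0. None reached 2-fold, where 0.572% of the 9097 genes were 2-fold or more higher and 52.3% were above 0. In WT, 5 of 8 members were above 0 as well, with a median of 0.14, and S100a4 (0.50) and S100a10 (0.35) were highest. S100a8 was the 1 of 7 brighter members that was 2-fold or more lower, against 0.352% of the 9097 genes, and S100a8 and S100a9 were 2 of 8 with all genes kept, against 2.59% of 18193. Of the 9097 genes 51.9% were above 0 in WT. Signs near 0 depended on the probe set or scaling: the dimmer probe set of S100a1 gave 0.18 in KO and -0.06 in WT, and quantile normalization gave 0.02 for S100a1 and 0.04 for S100g in KO.

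**Figure D5:**
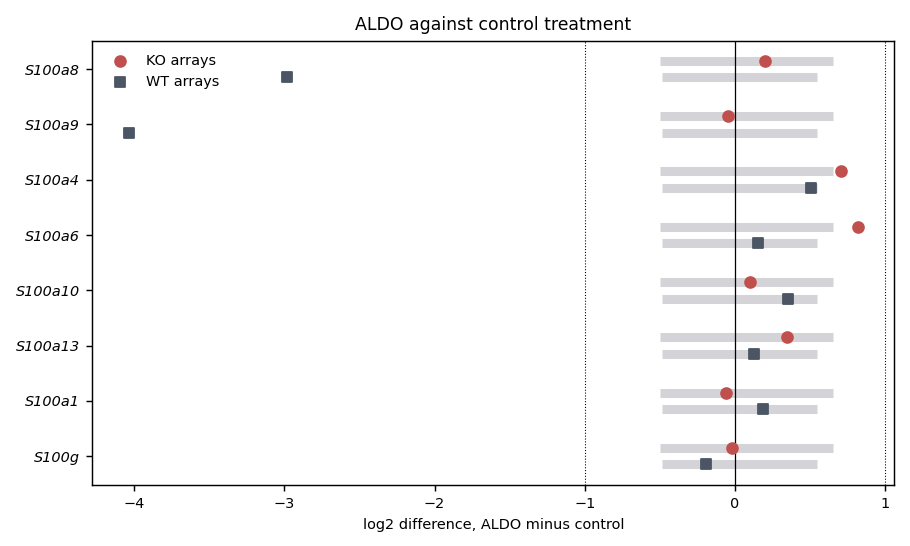
Log2 difference of ALDO minus control treatment for each of 8 S100 genes, on the KO arrays (circles) and the WT arrays (squares). Grey bars span the central 95% of the 9097 brighter genes and dotted lines mark 2-fold. S100a8 (-2.98) and S100a9 (-4.04) lie far to the left in WT, and the other 14 points lie between -0.19 and 0.82.

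The ALDO effect in KO minus that in WT, which uses all 4 arrays, was 3.18 for S100a8 and 3.99 for S100a9, and both values rest on the WT ALDO array. S100a6 followed with 0.66, as it was higher under ALDO by 0.82 in KO and by 0.16 in WT. The remaining members lay between -0.25 (S100a10) and 0.22 (S100a13) in their brightest probe sets. The other probe sets of S100a10 gave -0.16 and, for the dim one, 0.67, and the mean of its probe sets gave 0.09. S100a8 was the 1 of 7 brighter members past 2-fold, where 0.594% of the 9097 genes were that much higher, and with S100a9 it was 2 of 8, against 5.87% of 18193. In the list of binding partners of S100 proteins, Anxa1 had 0.78, Anxa2 0.55 and Cacybp 0.54. The 12 brighter genes of that list had a median of 0.17, and 11 were above 0, with Mdm2 (-0.28) lowest. Fibroblast markers had a median of 0.66 over 6 genes, from Dcn at -0.58 to vimentin, Vim, at 0.97, and their part in the value of S100a6 was not tested.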

How the data were processed

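The table that the authors deposited gives linear intensities of 45101 probe sets on 4 arrays. Affymetrix Expression Console made it, per the submitters' processing notes. Which algorithm and background correction were used is not known here, and no detection calls were used. No value was 0 or less, and trimming 2% at either end gave an equal mean on the 4 arrays, which shows that the deposited intensities had been scaled. A shift shared by most transcripts would not be seen after such scaling. The authors deposited no log2 values that were used here: log2(intensity + 16) was computed with numpy 2.4.6 and pandas 2.3.3 in Python 3.11.15. Names came from GEO's annotation of the array. After 64 Affymetrix controls were left out, 34945 probe sets had 1 symbol, 932 several and 9160 none. Entrez identifiers of 99.4% of the named probe sets were found in a RefSeq table of GRCm38.p6, and 0 symbols changed through it.

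The probe set with the highest mean log2 intensity stood for its gene, which left 18193 genes. The 9097 with the highest means (from 8.04 on the log2 scale, near an intensity of 247) made up the brighter 50%. Groups came from the sample titles. With 1 array per group no p-value or error was computed, and the calculations were tested on simulated data. Named were every S100 gene with its values, the highest and lowest brighter gene (not measured gene, as first set) of the lists described, Anxa2, Anxa1, Cacybp, Calb1, Tlr4, Ager, Stat3 and Socs3, and the 3 genes nearest to each of 3 members. Other partners, markers and neighbouring genes were named after their values were seen. The members, lists, motifs and rules were chosen with earlier results of these data known. Alternatives were other pseudocounts (1 and 64), quantile normalization, centring on the median, other choices of probe set and other limits on signal.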

Additional observations from a re-analysis of the deposited data

Results flagged for a closer look

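Several S100 genes were higher under ALDO in one genotype and lower in the other, and with 1 array a group none of these differences was tested. S100a8 had an ALDO effect of 0.20 in KO and -2.98 in WT, a difference of 3.18 that rests on the WT ALDO array. S100a1 had -0.06 in KO and 0.18 in WT, a difference of -0.24, and its dimmer probe set gave 0.24, of the opposite sign. S100a16 had 0.10 in KO and -0.01 in WT, a difference of 0.11. The dim S100a5 had 0.25 in KO and -0.03 in WT, a difference of 0.28. S100b, dim on all 4 arrays, had 1.21 in KO and -0.20 in WT, a difference of 1.41. The same 4 intensities of S100b put KO above WT under ALDO (0.74) and below it under control treatment (-0.67), and its other probe set gave 0.35 and 0.27.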

How the results depend on the processing

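The members' log2 differences were recomputed 210 times under 6 alternatives to the pseudocount, scaling and probe set. In 199 they moved by less than the spread between the brightest and the next probe set of 5903 genes. That spread was a standard deviation of 0.41 to 0.56, depending on the comparison. S100a1 in KO control minus WT control, which went from 0.52 to 0.16 with its second brightest probe set, was within it. All 11 that moved more were of S100a8 and S100a9. For the 6 members with 1 probe set, averaging probe sets returned the same value, so those recomputations, counted here, could not move or change sign. No difference past 2-fold changed sign, and none of the 84 KO minus WT differences did. Of the others 7 changed sign, all with main values within 0.25 of 0. Between KO ALDO and WT ALDO 3 members were past 2-fold, as with quantile normalization, against 2 with a pseudocount of 1 or 64 or with centring on the median, 4 with all genes kept or either other choice of probe set, and 1 in the brightest 25% of genes. Between WT ALDO and WT control, and likewise for the difference of ALDO effects, 1 member was past 2-fold, against 0 with a pseudocount of 1 or in the brightest 25% (S100a8 and S100a9 fell outside the genes counted) and 2 with all genes kept, when all probe sets of a gene were averaged or the second brightest was used (S100a9 was counted too). Centring on the median moved the median of all brighter genes to -0.11 (KO control minus WT control) and -0.13 (KO ALDO minus WT ALDO), and all 8 members stayed above 0. The genes 2-fold or more higher and lower were then 62 and 25 under control treatment, against 88 and 16, and 70 and 52 under ALDO, against 115 and 32. With all genes kept, 808 and 448 were counted under control treatment and 859 and 425 under ALDO. No paired analysis was possible because each group had 1 array. Signal over background limits S100a8, S100a9 and S100a14, whose lowest intensities were 34.5, 4.50 and 4.03.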

Other observations

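The genes whose log2 values, centred on their mean over the 4 arrays, lay closest to those of 3 members were looked up among 9089 brighter genes outside the family. Nearest to S100a6 were Myof (distance 0.064 on the log2 scale), the endothelial transcription factor Sox18 (0.10) and the vitamin D-activating enzyme Cyp27b1 (0.11). Myof, a membrane repair protein, had 394 in KO control, 259.6 in WT control, 665 in KO ALDO and 291 in WT ALDO. Nearest to S100g were Dnajc11 (0.097), Ccdc80 (0.12) and the leukocyte tetraspanin Cd53 (0.12).

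Distances from S100a8 were larger. The nearest gene, Wfdc17, lay at 1.47, with 569 in KO control, 169 in WT control, 698 in KO ALDO and 75.9 in WT ALDO. Gpx6 (1.76) and the protease Ctss (1.77) followed. These 3 genes were dimmest in WT ALDO, with log2 differences from WT control of -1.01 (Wfdc17), -1.17 (Gpx6) and -0.69 (Ctss). They were picked for nearness to S100a8, so their low WT ALDO values follow from that choice. The distance was not scaled for the size of a gene's differences, which were large for S100a8. Nearness is a description of these 4 arrays.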
